A study of Mus musculus with 24 samples.

Results

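Lysosomal gene expression was examined in sorted sensory neurons of control and Nav-Tsc2 mice, over 52 of 47643 genes in the count files. The 52 genes were chosen by name, with earlier results of these data known. They comprised 23 acid hydrolases and hydrolase activators, 9 proteins of the lysosomal membrane or lumen, 3 Lamtor genes and 17 genes of the V-ATPase, of which 49 passed the filter on low counts and were tested among 17178 genes. L4 dorsal root ganglion (DRG) cells positive for the green reporter were sorted by flow cytometry from 4 control and 4 Nav-Tsc2 mice, and RNA-seq was performed on 3 technical libraries of 100 cells for each mouse. All carried Nav1.8-Cre and the reporter Rosa26-ZsGreen, control mice were Tsc2 flox/+ and Nav-Tsc2 mice Tsc2 flox/null, and all were on a mixed C57BL/6 and AJ background and 8 to 9 weeks of age. In both genotypes mice 1 and 2 were males and mice 3 and 4 females. All mice had a crushed sciatic nerve on the opposite side and were taken 3 d after that injury, which the control libraries therefore share. The sorted control cells also carried Cre and a floxed Tsc2 allele, so Cre could remove 1 of their 2 Tsc2 alleles, and in Nav-Tsc2 cells it could remove the only intact one. The Nav1.8 promoter drives Cre mostly in C-nociceptors, the unmyelinated pain-sensing neurons, and in some neurons with myelinated axons, and the ZsGreen reporter marks cells in which Cre has acted.

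Lysosomes degrade proteins, lipids and sugars with hydrolases that need an acid lumen. The V-ATPase supplies the acid: its V1 sector, on the cytosolic side, hydrolyzes ATP, and its V0 sector, in the membrane, moves protons. The lysosomal surface is also where the kinase complex mTORC1 is activated, held there by the Ragulator complex of the Lamtor proteins, and Tsc2 is part of the complex that inhibits mTORC1. Transcription factors of the TFEB family, which mTORC1 phosphorylates, bind a motif with the core CACGTG in promoters of many lysosomal genes.

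The core motif was therefore looked up in the RefSeq promoter windows of build GRCm38.p6, which run from 250 bases before to 50 bases after each gene's start. A window was given for 42 of the 52 genes and not for Lamtor3, Atp6v1h, Atp6v1c1, Atp6v0d2, Asah1, Npc1, Atp6v1g1, Atp6v1b2, Ctsh and Ctsb. CACGTG, which reads the same on both strands, stood in 16 of the 42 windows (38.1%), against 8.09% of the windows of 27025 genes. The longer form TCACGTGA, also the same on both strands, stood in 7 windows (16.7%, against 1.12% of all genes). GTCACGTG, searched on both strands, stood in 10 windows (23.8%, against 2.55%). Both longer forms contain the core, and a single site can hold both. The 30-base stretches below show the core in capitals, 5′ to 3′ on the gene's strand, first for 6 genes whose RNA was higher in Nav-Tsc2 and then for 3 that were not called, so that promoters with the same core can be set beside their RNA.
Ctsa, chr2:164833749-164833778, plus strand: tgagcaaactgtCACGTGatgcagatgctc
Ctsd, chr7:142387908-142387937, minus strand: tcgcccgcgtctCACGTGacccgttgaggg
Gla, chrX:134601182-134601211, minus strand: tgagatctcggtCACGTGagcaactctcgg
Lamp1, chr8:13159121-13159150, plus strand: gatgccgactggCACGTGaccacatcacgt
Mcoln1, chr8:3500462-3500491, plus strand: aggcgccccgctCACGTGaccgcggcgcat
Atp6v0b, chr4:117887348-117887377, minus strand: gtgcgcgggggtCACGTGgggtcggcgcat
Gaa, chr11:119267811-119267840, plus strand: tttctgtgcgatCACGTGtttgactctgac
Atp6v0d1, chr8:105566050-105566079, minus strand: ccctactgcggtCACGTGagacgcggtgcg
Atp6v1a, chr16:44139373-44139402, minus strand: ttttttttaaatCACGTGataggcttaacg
The cores shown start -12 (Ctsa), -98 (Ctsd), -194 (Gla), -28 (Lamp1), -45 (Mcoln1), -36 (Atp6v0b), -140 (Gaa), -3 (Atp6v0d1) and -131 (Atp6v1a) bases from the RefSeq gene start, counted on the gene's strand. Further cores stood in the same windows of Ctsa, Ctsd, Gla, Mcoln1 and Atp6v0b, and the Lamp1 window held 4. The stretches of Ctsl and Naglu, called higher, are not shown. Those of Ctsf, Glb1, Sgsh, Lamtor1 and Atp6v0e, not called, are not shown either. By the rule given below, 9.12% of all genes tested were called higher in Nav-Tsc2 and 8.00% lower. Of the 16 genes with a core, 8 were called higher and 0 lower. Of 25 tested genes whose window had none, 13 were called higher and 2 lower. With GTCACGTG these counts were 7 of 10 higher with the motif and 14 of 31 without it, and with TCACGTGA 4 of 7 and 17 of 34. These splits are descriptions with no test, and no binding was measured.

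Tsc2 itself was measured first. It stood at 13.4, 24.7, 21.5 and 24.1 CPM (reads per 1000000 counted reads, scaled by TMM factors) in control mice 1 to 4 and at 8.70, 8.51, 7.30 and 11.0 CPM in Nav-Tsc2 mice 1 to 4. All Nav-Tsc2 mice were below all control mice. The log2 fold change, given throughout as Nav-Tsc2 over control with its standard error (SE), was -1.24 ± 0.22 (adjusted p = 0.00400, edgeR quasi-likelihood test with Benjamini-Hochberg adjustment over all 17178 genes). Scn10a, which encodes Nav1.8, was abundant in every mouse (509.7 to 791 CPM), and its difference did not pass the test (log2 fold change -0.14 ± 0.14, adjusted p = 0.526). Mice had between 47959617 and 61290435 counts on genes and single libraries between 8339220 and 34228180.

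The summed levels of marker genes for other cells also differed. Endothelial markers (8 genes) summed to 0.508 to 2.13 CPM in control and 7.81 to 20.6 CPM in Nav-Tsc2 mice. Flt1, Kdr and Ly6c1 were called higher among them, while Cdh5, Cldn5 and Tie1 were each under 1 CPM in all mice. Macrophage markers (15 genes) summed to 4.70 to 13.5 and 10.9 to 31.2 CPM. Of these, 8 were under 1 CPM in all mice, Ptprc and Itgam among them, and Cx3cr1 was called higher at a mean of 0.0328 ± 0.0197 against 5.71 ± 3.01 CPM. Glial markers (12 genes) summed to 2875 to 3036 CPM in control and 1884 to 2461 CPM in Nav-Tsc2, and S100b was called lower. Fibroblast markers (6 genes) overlapped, at 73.1 to 236 and 121 to 196 CPM, and red blood cell markers (5 genes) summed to 1.63 to 2.80 and 0.473 to 0.672 CPM, with 0 genes of either list called by edgeR. At an unadjusted p under 0.05 there were 0 fibroblast and 3 red blood cell genes, all 3 lower, and DESeq2, run as an alternative, called 0 and those 3. Nociceptor and neuron markers (14 genes) summed to 21405 to 32495 CPM in control and 18907 to 22433 CPM in Nav-Tsc2, with Prph called higher and Rbfox3, Snap25 and Calca among those called lower. The part of these cells and markers in the lysosomal results was not tested, and in 100-cell pools fewer cells of a type and less RNA per cell cannot be told apart.

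Many genes of lysosomal hydrolases and membrane proteins had a higher CPM in the sorted cells of Nav-Tsc2 mice. A gene was called when its adjusted p was under 0.05 and its log2 fold change over 0.5 or under -0.5. By this rule 23 of the 49 tested lysosomal genes were higher, where 9.12% of all genes tested were, and 2 were lower, where 8.00% of all genes were. The lower genes were Atp6v1g2 and Atp6v0c, and the direction of Atp6v0c reversed when its pseudogene reads were added. Membrane and luminal proteins had the largest share, with 6 of 9 higher and 0 lower (median log2 fold change 0.96), followed by the hydrolases with 12 of 21 higher and 0 lower (median 0.64). Of the V-ATPase genes 5 of 16 were higher and 2 lower (median 0.36), and of the Lamtor genes 0 of 3 were called (median 0.20). DESeq2 gave the same counts in all 4 classes. The median over all genes tested was 0.01, and over the 49 lysosomal genes 0.49. These medians and shares describe the lists, which were not tested as sets.

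**Figure D1:**
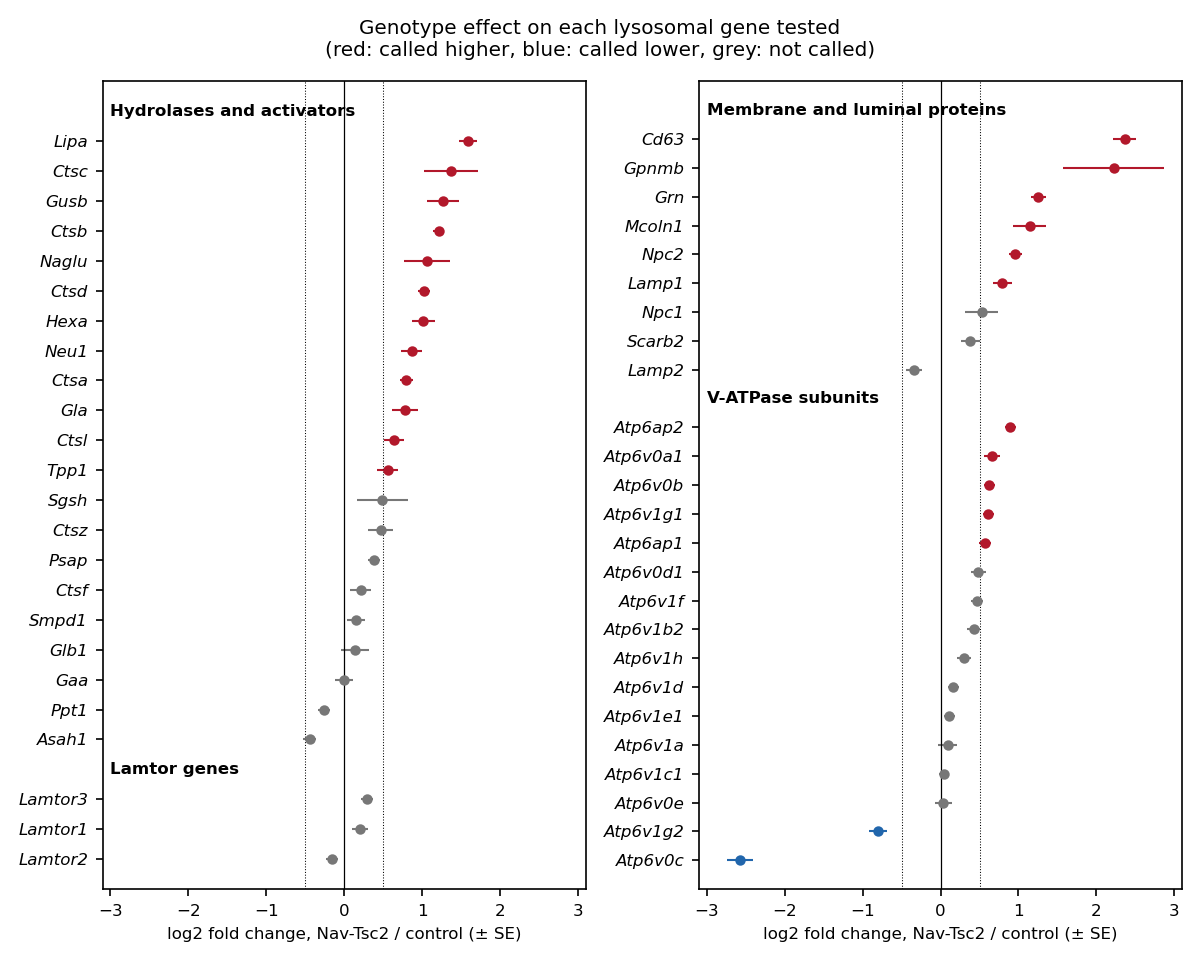
Log2 fold change of each of the 49 tested lysosomal genes (x axis, Nav-Tsc2 over control, bars ± SE, n = 4 mice per genotype), grouped by class, with dotted lines at -0.5 and 0.5. Cd63 lies farthest to the right at 2.36 and Atp6v0c farthest to the left at -2.58, a direction that reversed with its pseudogene reads added.

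By the adjusted p alone, 30 were higher and 5 lower, against 10.8% and 10.2% of all genes. The 7 and 3 genes added this way differed by less than the fold threshold, and the remaining 14 did not pass the adjusted p. In 31 genes every Nav-Tsc2 mouse was above every control mouse and in 5 every one was below, against 14.6% and 12.3% of all genes tested. Taking for each mouse the median over genes of the log2 ratio to the control mean, hydrolases ran from -0.10 to 0.05 in control mice and from 0.67 to 0.86 in Nav-Tsc2 mice. The same median for membrane and luminal proteins was -0.25 to 0.01 in control and 0.88 to 1.09 in Nav-Tsc2. For V-ATPase genes it was -0.04 to 0.02 and 0.30 to 0.37. The genotypes were apart in each of these 3 classes, and the Lamtor ranges (-0.06 to 0.04 and 0.03 to 0.26) met.

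Cathepsins, the lysosomal proteases, were higher in 5 of 7 tested (71.4%), against 9.12% of all genes tested. Ctsb, a cysteine protease, was the most abundant hydrolase, at a control level of 796 CPM per kb of exon. Its values were 4851, 5275, 4631 and 4497 CPM in control mice 1 to 4 and 11284, 10655, 11831 and 10912 CPM in Nav-Tsc2 mice 1 to 4. Each Nav-Tsc2 mouse, and each of the 12 Nav-Tsc2 libraries, was above all controls (log2 fold change 1.21 ± 0.07, adjusted p = 2.12e-05). Ctsb lies on chr14:63122462-63145923 (plus strand, GRCm38), and 12.8% of its exon bases overlap another gene.

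Ctsd, the main aspartic protease of the lysosome, lies on chr7:142375911-142388038 (minus strand). Control mice had 684, 774, 767 and 793 CPM and Nav-Tsc2 mice 1545, 1525, 1456 and 1615 CPM. The ranges were far apart and all 12 Nav-Tsc2 libraries exceeded every control library (log2 fold change 1.03 ± 0.07, adjusted p = 4.58e-05). Of the gene's exon bases, 34.4% overlap another annotated gene, where reads may not be assigned to one gene.

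Ctsa, a carboxypeptidase that also protects the sialidase Neu1, lies on chr2:164832873-164841032 (plus strand). Its counts were 179, 209, 183 and 216 CPM in control mice and 356, 342, 319 and 353 CPM in Nav-Tsc2 mice. There was no overlap between mice or between libraries (log2 fold change 0.80 ± 0.09, adjusted p = 0.000336). Of its exon bases 17.4% overlap another gene. Ctsl, another cysteine protease, rose as well, from 1263 ± 127 to 1974 ± 331 CPM (mean ± SD, n = 4 mice per genotype, as in the pairs of means that follow). Its log2 fold change was 0.64 ± 0.13 (adjusted p = 0.00678), and 26.8% of its exon bases overlap another gene. Ctsc, which activates serine proteases of immune cells, was low, at 8.44 ± 4.15 CPM in control and 21.9 ± 4.69 CPM in Nav-Tsc2. Its log2 fold change was 1.38 ± 0.35 (adjusted p = 0.0206). The call was lost without control mouse 1 (adjusted p = 0.0502) or without Nav-Tsc2 mouse 3 (adjusted p = 0.0577).

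The remaining cathepsins were not called. Ctsz was at 140.0 ± 32.8 and 194 ± 14.7 CPM (adjusted p = 0.0617), and it was called without control mouse 1 (log2 fold change 0.56) or without control mouse 2 (0.57). Ctsf was at 18.6 ± 1.71 and 21.5 ± 2.17 CPM (adjusted p = 0.297). Ctsh and Ctss, a cathepsin typical of antigen-presenting cells, fell under the filter on low counts. All 25 control reads of Ctsh came from 1 library of control mouse 4. For Ctss, 31 of 33 control reads came from that same library, and 86 of 92 Nav-Tsc2 reads came from 1 library of Nav-Tsc2 mouse 4. Neither gene was compared between genotypes.

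Enzymes that cleave sugars or sulfates were higher in 5 of 8 (62.5%), against 9.12% of all genes tested. Hexa encodes a subunit of beta-hexosaminidase, the enzyme that degrades the ganglioside GM2, and lies on chr9:59539540-59565109 (plus strand). Control mice had 67.2, 65.2, 94.1 and 77.5 CPM and Nav-Tsc2 mice 165, 179, 140.1 and 132 CPM. All Nav-Tsc2 mice and libraries were above the controls, with the male Nav-Tsc2 mice (1 and 2) highest (log2 fold change 1.02 ± 0.14, adjusted p = 0.00124). Of the exon bases of Hexa, 12.8% overlap another gene. Neu1, the lysosomal sialidase, lies on chr17:34931253-34935953 (plus strand), the chromosome that also carries Tsc2. It had 29.5, 33.6, 22.4 and 28.1 CPM in control and 58.4, 52.3, 46.3 and 49.8 CPM in Nav-Tsc2 mice. The mice did not overlap (log2 fold change 0.87 ± 0.14, adjusted p = 0.00241).

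Gusb, the beta-glucuronidase, rose from 24.2 ± 7.24 to 58.3 ± 7.38 CPM (log2 fold change 1.27 ± 0.21, adjusted p = 0.00275). Gla, the alpha-galactosidase A whose loss causes Fabry disease, rose from 36.2 ± 9.28 to 62.1 ± 5.10 CPM (log2 fold change 0.78 ± 0.16, adjusted p = 0.00928). Naglu, which degrades heparan sulfate, had 5.82 ± 2.52 and 12.2 ± 1.16 CPM (log2 fold change 1.07 ± 0.29, adjusted p = 0.0291). The mice did not overlap for any of these 3 genes. The Naglu call was lost without any 1 mouse other than control mouse 3 (adjusted p from 0.0520 to 0.0718).

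Gaa, the acid alpha-glucosidase that degrades glycogen, had the same mean in both genotypes, 189 ± 24.1 and 189 ± 21.3 CPM (log2 fold change 0.00 ± 0.11, adjusted p = 0.997). Glb1, the beta-galactosidase, was at 36.2 ± 7.13 and 39.8 ± 7.10 CPM (adjusted p = 0.641). Sgsh, which like Naglu degrades heparan sulfate, was at 2.79 ± 0.913 and 3.92 ± 0.830 CPM (log2 fold change 0.49 ± 0.33, adjusted p = 0.335). Of its exon bases 21.6% overlap another gene. The windows of Gaa, Glb1 and Sgsh all held the CACGTG core. Among the sugar or sulfate enzymes called higher, the windows of Gla and Naglu held it and those of Hexa, Gusb and Neu1 did not.

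**Figure D2:**
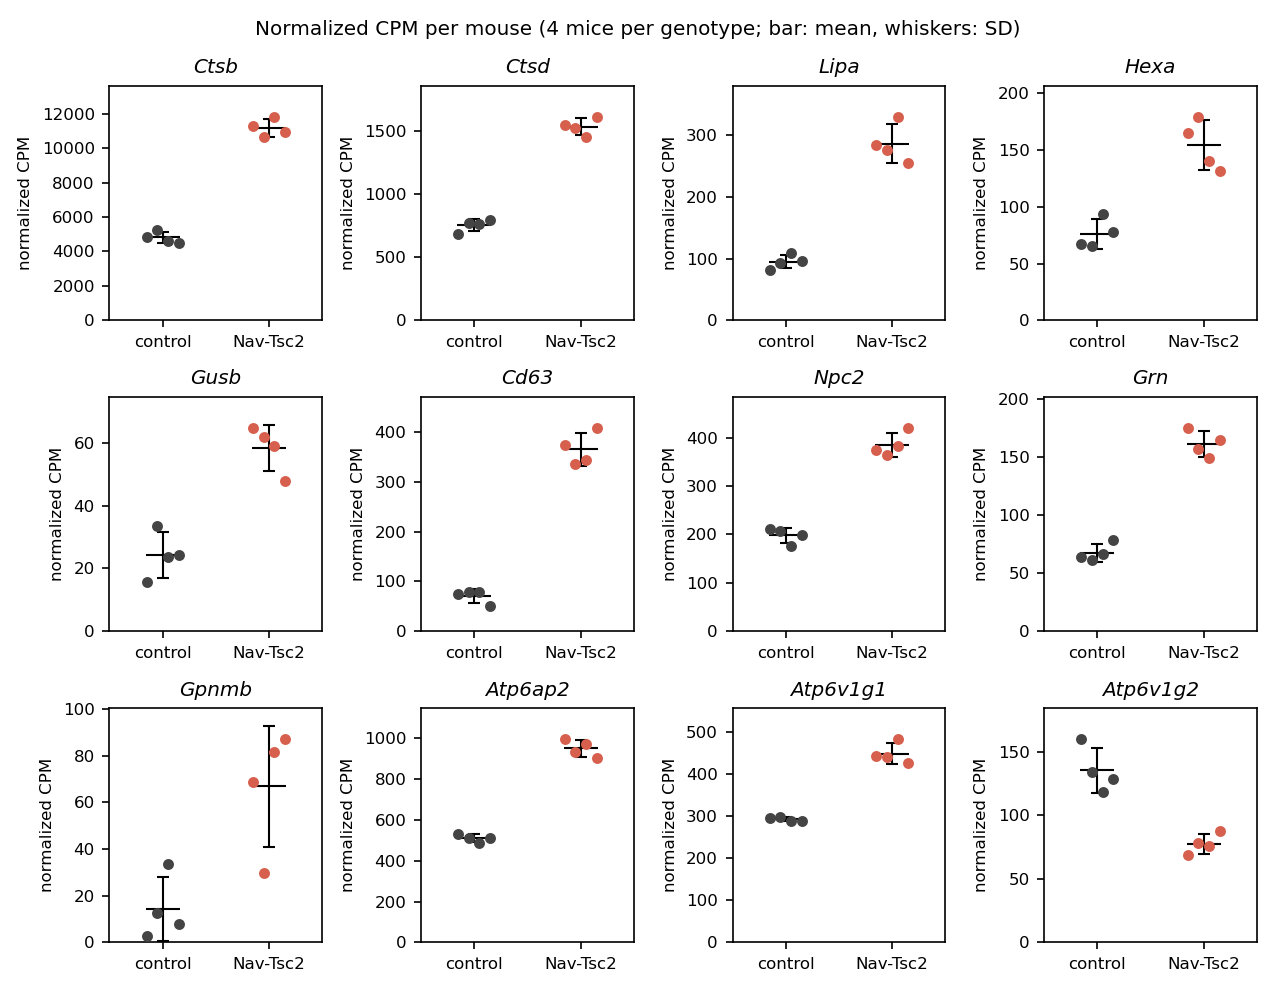
Normalized CPM (y axes, from 0, a different scale per panel) of 12 lysosomal genes in each of 4 control and 4 Nav-Tsc2 mice, with mean and SD. The genotypes are apart in every panel except Gpnmb, where control mouse 3 (33.7) is above Nav-Tsc2 mouse 2 (29.7), and only Atp6v1g2 is lower in Nav-Tsc2.

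The enzymes of lipid and peptide breakdown and their activator moved in both directions. Lipa, the acid lipase that releases cholesterol from its esters, lies on chr19:34492318-34527474 (minus strand). It had 82.2, 92.3, 108 and 96.3 CPM in control mice and 283, 276, 329 and 254 CPM in Nav-Tsc2 mice. The ranges were far apart in mice and libraries, and the log2 fold change of 1.59 ± 0.11 was the largest among the 21 hydrolases tested (adjusted p = 3.96e-05). Tpp1, a tripeptidyl peptidase lost in a childhood ceroid lipofuscinosis, rose from 74.1 ± 14.4 to 109 ± 8.55 CPM (log2 fold change 0.56 ± 0.14, adjusted p = 0.0180). Its call was lost without control mouse 3 (log2 fold change 0.46) and without Nav-Tsc2 mouse 4 (adjusted p = 0.0537).

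Psap, the precursor of the saposins that present lipids to their hydrolases, passed the adjusted p but not the fold threshold, at 704 ± 60.7 and 919.7 ± 44.8 CPM (log2 fold change 0.39 ± 0.08, adjusted p = 0.00935). Asah1 and Ppt1 passed it in the other direction. Asah1, the acid ceramidase, had 167, 161, 147 and 179 CPM in control and 113, 122, 128 and 117 CPM in Nav-Tsc2 mice, with no overlap (log2 fold change -0.44 ± 0.08, adjusted p = 0.00566). Ppt1, which removes palmitate from proteins, had 145, 143, 123 and 141 CPM, against 117, 117, 117 and 110.4 CPM, again with no overlap (log2 fold change -0.26 ± 0.08, adjusted p = 0.0430). Smpd1, the acid sphingomyelinase, did not pass (log2 fold change 0.15 ± 0.12, adjusted p = 0.424). Hydrolases that share the lysosome thus differed in the direction of their RNA, and the fold threshold kept the lower ones out of the calls.

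Among membrane and luminal proteins, Cd63 had the largest rise of all 52 genes. Cd63 is a tetraspanin of late endosomes, lysosomes and exosomes and lies on chr10:128900989-128912822 (plus strand). Its values were 75.8, 78.0, 79.2 and 50.6 CPM in control mice and 372, 336, 343 and 408 CPM in Nav-Tsc2 mice. The ranges were far apart, with control mouse 4 the lowest of all (log2 fold change 2.36 ± 0.15, adjusted p = 2.24e-05). Of the 50-base windows of Cd63, 11.1% also occur in other genes, Cd63-ps and Gm38157 among them. The reads counted for these copies summed to a mean of 8.62 CPM in control and 17.6 CPM in Nav-Tsc2 mice, and with them added to Cd63, an alternative chosen after the data were seen, the log2 fold change was 2.27 ± 0.13 (adjusted p = 1.87e-05, edgeR).

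Grn encodes progranulin, a secreted and lysosomal protein, and lies on chr11:102430315-102437048 (plus strand). It had 63.9, 61.7, 66.8 and 78.7 CPM in control and 176, 157, 149 and 165 CPM in Nav-Tsc2 mice, all of them above the controls (log2 fold change 1.26 ± 0.10, adjusted p = 6.63e-05). Npc2 is the luminal protein that hands cholesterol to the membrane protein Npc1, and lies on chr12:84754562-84773152 (minus strand). Control mice had 212, 206, 177 and 198 CPM and Nav-Tsc2 mice 374, 363, 383 and 421 CPM, without overlap (log2 fold change 0.96 ± 0.09, adjusted p = 0.000120). Its partner Npc1 had 16.7, 17.3, 17.6 and 32.0 CPM, against 32.0, 30.9, 30.5 and 27.0 CPM, and was not called (log2 fold change 0.53 ± 0.21, adjusted p = 0.114). Control mouse 4 stood above the other 3 controls for Npc1, and without it the gene was called (log2 fold change 0.81, adjusted p = 0.00321).

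Lamp1, an abundant glycoprotein of the lysosomal membrane, lies on chr8:13159161-13175338 (plus strand). It had 151, 158, 213 and 194 CPM in control mice and 333, 329, 273 and 305 CPM in Nav-Tsc2 mice. All Nav-Tsc2 mice and all 12 of their libraries were above the controls (log2 fold change 0.79 ± 0.12, adjusted p = 0.00214). The related Lamp2, which also serves chaperone-mediated autophagy and had the highest control level per length of its class (73.6 CPM per kb), went the other way. Its values were 768, 809, 612 and 625 CPM in control and 590.3, 532, 575 and 522 CPM in Nav-Tsc2 mice. The mice did not overlap, and the difference passed the adjusted p without reaching the fold threshold (log2 fold change -0.34 ± 0.11, adjusted p = 0.0468).

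Mcoln1, the calcium channel TRPML1, lies on chr8:3500457-3515232 (plus strand) and had 19.5, 30.4, 42.1 and 37.8 CPM in control and 73.5, 71.3, 63.4 and 78.4 CPM in Nav-Tsc2 mice. The ranges were apart (log2 fold change 1.14 ± 0.21, adjusted p = 0.00480). Gpnmb, a glycoprotein also strongly expressed by macrophages that clear debris, lies on chr6:49036546-49070929 (plus strand) and varied most. It had 2.81, 12.7, 33.7 and 7.97 CPM in control and 68.6, 29.7, 81.7 and 87.3 CPM in Nav-Tsc2 mice, and the groups overlapped (log2 fold change 2.22 ± 0.65, adjusted p = 0.0371). Of the 12 Nav-Tsc2 libraries 4 exceeded every control library. Control mouse 3 was the highest control, and without it the log2 fold change of Gpnmb was 3.09, while over all 16 other fits it ran from 1.88 to 3.09. The Gpnmb call was lost without control mouse 2 or 4 or without Nav-Tsc2 mouse 1, 3 or 4 (adjusted p from 0.0801 to 0.0867). Scarb2, the receptor that carries beta-glucocerebrosidase to the lysosome, passed the adjusted p only, at 73.9 ± 11.4 and 96.4 ± 7.65 CPM (log2 fold change 0.38 ± 0.12, adjusted p = 0.04995).

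The Lamtor genes were not called by edgeR or DESeq2. At an unadjusted p under 0.05 edgeR had 1 higher, Lamtor3, and 0 lower, and DESeq2 had 1 higher and 1 lower. Lamtor2 had the highest level per length (195 CPM per kb in control) and 242, 246, 238 and 225 CPM in control against 205, 200.3, 232 and 215 CPM in Nav-Tsc2 mice (log2 fold change -0.16 ± 0.08, adjusted p = 0.173). Lamtor1, which anchors the complex to the membrane, was at 68.6 ± 7.58 and 79.0 ± 6.58 CPM (log2 fold change 0.20 ± 0.11, adjusted p = 0.219), and 18.7% of its exon bases overlap another gene. Lamtor3 had 61.6, 62.1, 63.0 and 58.9 CPM in control against 75.2, 72.2, 75.6 and 77.2 CPM in Nav-Tsc2 mice. Its mice did not overlap, and it passed the adjusted p with a log2 fold change of 0.29 ± 0.08 (adjusted p = 0.0239), under the fold threshold. Lamtor4 and Lamtor5 are counted below with the further membrane proteins. They did not pass, with log2 fold changes of -0.03 ± 0.10 and -0.03 ± 0.09 (adjusted p = 0.897 and 0.843, edgeR).

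The V-ATPase genes had the highest levels per length of the 4 classes, with a median of 95.4 CPM per kb in control mice against 14.4 for hydrolases, 19.3 for membrane and luminal proteins and 21.4 for Lamtor genes. Both accessory subunits were called higher, and of the V0 genes 2 of 5 were higher and 1 lower. Of the V1 genes 1 of 9 was higher (11.1%) and 1 lower (11.1%). These V1 shares were near the 9.12% and 8.00% of all genes tested that were called higher and lower. With the reads of Atp6v0c and its pseudogenes summed, an alternative added after the data were seen, 3 of the 5 V0 genes were higher and 0 lower.

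**Figure D3:**
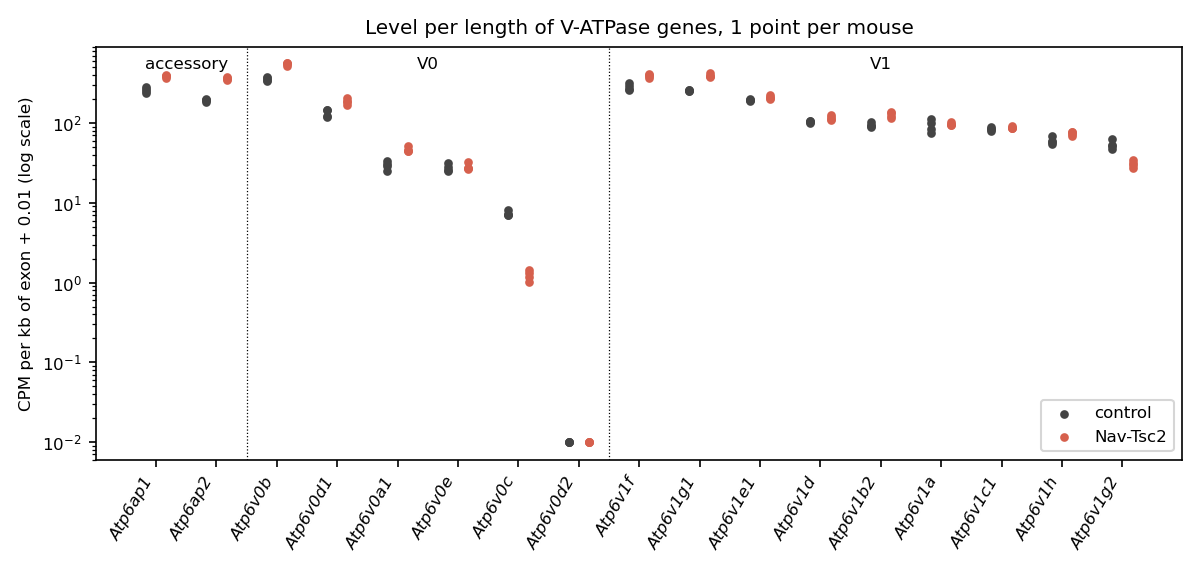
CPM per kb of exon with 0.01 added (y axis, log scale) of the 17 V-ATPase genes in each mouse, grouped into accessory, V0 and V1 genes and ordered by control level. Atp6v0b is the highest in control at 357 CPM per kb, Atp6v0d2 has 0 reads, and of the tested genes only Atp6v1g2 and Atp6v0c are called lower in Nav-Tsc2, the latter reversing with its pseudogene reads added.

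The accessory subunits help to assemble and place the pump. Atp6ap2, also called the prorenin receptor, lies on chrX:12587801-12617049 (plus strand). It had 531, 512, 487 and 511 CPM in control and 997, 933, 969.6 and 901 CPM in Nav-Tsc2 mice. These ranges did not meet (log2 fold change 0.90 ± 0.07, adjusted p = 5.47e-05). Atp6ap1, on chrX:74297097-74304721 (plus strand), had 761, 818, 719 and 856 CPM, against 1203, 1181, 1169 and 1121 CPM (log2 fold change 0.57 ± 0.08, adjusted p = 0.000921). All 12 Nav-Tsc2 libraries exceeded every control library for both genes.

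In the V0 sector, Atp6v0b, a subunit of the proton-carrying ring, lies on chr4:117884326-117887333 (minus strand). Control mice had 691, 707, 752 and 779.8 CPM and Nav-Tsc2 mice 1179, 1154, 1137 and 1052 CPM. No library overlapped between genotypes (log2 fold change 0.63 ± 0.07, adjusted p = 0.000448), and 11.8% of the gene's exon bases overlap another gene. Atp6v0a1, the a subunit prominent in neurons, rose from 194 ± 24.6 to 306 ± 22.0 CPM (log2 fold change 0.66 ± 0.10, adjusted p = 0.00223). Atp6v0d1, which links the ring to the V1 stalk, passed the adjusted p just under the fold threshold, at 241 ± 25.4 and 337 ± 28.6 CPM (log2 fold change 0.49 ± 0.10, adjusted p = 0.00778). It was called without control mouse 3 (log2 fold change 0.52), without control mouse 4 (0.53) and without Nav-Tsc2 mouse 3 (0.53). Atp6v0e was at 103 ± 11.2 and 105 ± 10.4 CPM (adjusted p = 0.851). Atp6v0d2, a form known from osteoclasts and macrophages, had 0 reads in all 24 libraries, which allows at most 3 counts, or 0.0489 to 0.0626 CPM, per mouse.

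Atp6v0c, the main subunit of the proton ring, had the largest fall, but its count cannot be read alone. It lies on chr17:24163866-24169702 (minus strand) and had 27.3, 23.9, 24.3 and 23.8 CPM in control and 3.95, 3.40, 4.48 and 4.82 CPM in Nav-Tsc2 mice (log2 fold change -2.58 ± 0.16, adjusted p = 2.24e-05). Every Nav-Tsc2 library was below every control library. Its level in control, 7.33 CPM per kb, was far below the 357 CPM per kb of its ring partner Atp6v0b. The processed copy Atp6v0c-ps2, on chromosome 6, is identical to an Atp6v0c transcript at 386 of 387 aligned bases (99.7%), and Atp6v0c-ps1 at 378 of 387 (97.7%). Reads were 50 bases long, and reads that fit more than 1 place equally well are not counted.

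The copy moved in the opposite direction. Atp6v0c-ps2 had 30.1, 35.0, 32.1 and 33.8 CPM in control and 79.6, 84.3, 81.6 and 78.2 CPM in Nav-Tsc2 mice (log2 fold change 1.31 ± 0.09, adjusted p = 2.73e-05). Atp6v0c made up 43.1 ± 3.13% of the reads of both together in control and 4.90 ± 0.82% in Nav-Tsc2 (mean ± SD over 4 mice). With Atp6v0c and both copies summed, an alternative added after the data were seen, control mice had 57.8, 59.1, 56.6 and 57.7 CPM and Nav-Tsc2 mice 83.7, 87.9, 86.4 and 83.2 CPM. The sum was higher in every Nav-Tsc2 mouse (log2 fold change 0.56 ± 0.07, adjusted p = 0.000843), so the direction for Atp6v0c reverses and stays uncertain. Atp6v0c lies 426113 bases from Tsc2 on chromosome 17. Of 72 other tested genes within 1000000 bases of Tsc2, 6 were called higher and 6 lower, against 9.12% and 8.00% of all genes.

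**Figure D4:**
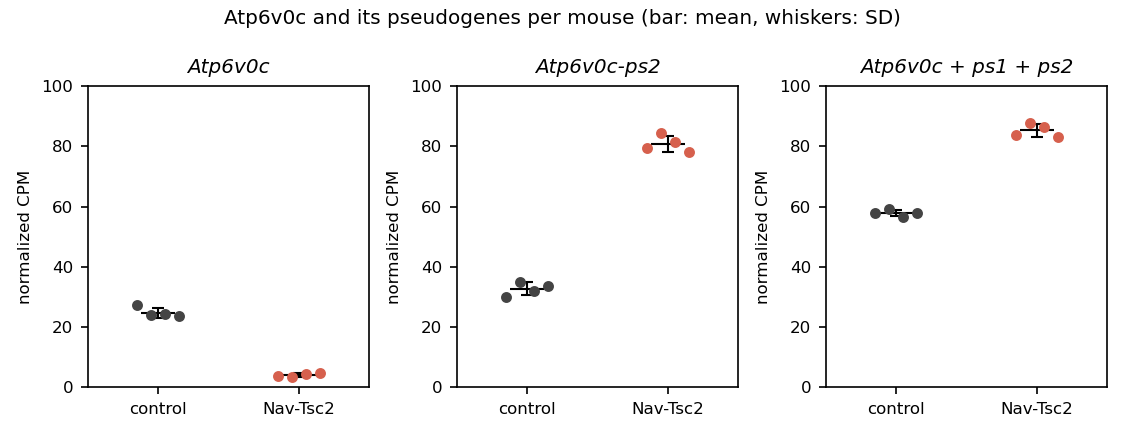
Normalized CPM (y axes from 0, one scale) per mouse of Atp6v0c, its pseudogene Atp6v0c-ps2, and the sum of Atp6v0c with both pseudogenes (ps1 and ps2), with mean and SD. Atp6v0c is lower in Nav-Tsc2 mice, the pseudogene is higher, and the sum is higher (57.8 ± 1.01 against 85.3 ± 2.23 CPM, SD, n = 4).

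In the V1 sector, the G subunits, which are part of the peripheral stalk, went in opposite directions. Atp6v1g1, the form found in most tissues, lies on chr4:63544772-63550750 (plus strand) and had 296, 298, 289 and 289 CPM in control and 442, 439.6, 484 and 427 CPM in Nav-Tsc2 mice. Atp6v1g2, the form of the nervous system, lies on chr17:35233660-35238767 (plus strand) and had 160.3, 134, 118 and 128 CPM in control, against 68.7, 78.3, 75.6 and 87.4 CPM. Neither gene's mice overlapped between genotypes. Atp6v1g1 rose with a log2 fold change of 0.61 ± 0.07 (adjusted p = 0.000406) and Atp6v1g2 fell with one of -0.80 ± 0.11 (adjusted p = 0.00135). Of the 50-base windows of Atp6v1g1, 19.2% also occur in other genes, Gm13453 and Gm12344 among them, and with the reads of these copies added, an alternative chosen after the data were seen, its log2 fold change was 0.61 ± 0.07 (adjusted p = 0.000406, edgeR). In CPM per kb of exon, the level of Atp6v1g1 was 258 ± 4.20 in control and 395 ± 21.9 in Nav-Tsc2, and that of Atp6v1g2 was 53.9 ± 7.17 in control and 30.9 ± 3.08 in Nav-Tsc2 (mean ± SD). Atp6v1g1 was thus the more abundant form in both genotypes, and all 12 Nav-Tsc2 libraries exceeded every control library for it, whereas only 2 Nav-Tsc2 libraries of Atp6v1g2 were below every control library.

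Of the other V1 subunits, 3 passed the adjusted p without the fold threshold, all higher. They were Atp6v1f (log2 fold change 0.47 ± 0.08, adjusted p = 0.00334), Atp6v1b2, the brain form of the ATP-binding B subunit (0.42 ± 0.08, adjusted p = 0.00657), and Atp6v1h (0.30 ± 0.09, adjusted p = 0.0394). Without control mouse 3 Atp6v1f was called (log2 fold change 0.51). The catalytic subunit Atp6v1a had 456, 507, 602 and 675 CPM in control and 594, 579.9, 575 and 633 CPM in Nav-Tsc2 mice, with overlap (log2 fold change 0.09 ± 0.12, adjusted p = 0.657). Atp6v1c1, Atp6v1d and Atp6v1e1 did not pass, with log2 fold changes of 0.04 ± 0.07, 0.16 ± 0.07 and 0.11 ± 0.07 (adjusted p = 0.702, 0.147 and 0.283).

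Lysosomal genes outside the 52 were counted in the same fit. Of 28 further hydrolases tested, 9 were higher (32.1%, against 9.12% of all genes tested), with a median log2 fold change of 0.43. Lower calls were 2 (7.14%), near the 8.00% of all genes tested. Dpp7, a dipeptidyl peptidase, had 36.4, 43.7, 40.9 and 39.5 CPM in control and 150.3, 111, 113 and 115 CPM in Nav-Tsc2 mice (log2 fold change 1.61 ± 0.12, adjusted p = 4.87e-05). The serine carboxypeptidase Scpep1 (2.80 ± 0.45, adjusted p = 0.00228) was also higher. Scpep1 varied widely among Nav-Tsc2 mice, at 63.3, 52.4, 51.1 and 57.3 CPM in control and 602, 165, 175 and 619.7 CPM in Nav-Tsc2 mice, with mice 1 and 4 far above mice 2 and 3. Lgmn, the asparaginyl protease legumain, fell from 640.4 ± 140.4 to 311 ± 30.8 CPM (log2 fold change -1.04 ± 0.16, adjusted p = 0.00197), and Siae, a sialic acid esterase, from 23.4 ± 3.59 to 15.7 ± 2.54 CPM (-0.58 ± 0.16, adjusted p = 0.0323).

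Of 23 further lysosomal membrane proteins and transporters, 4 were higher (17.4%) and 0 lower, against 9.12% and 8.00% of all genes (median 0.34). They were led by Ostm1 (0.88 ± 0.11, adjusted p = 0.000674), the calcium channel Tpcn2 (1.44 ± 0.24, adjusted p = 0.00275) and the nucleoside transporter Slc29a3 (1.14 ± 0.22, adjusted p = 0.00578). Of 10 genes that sort enzymes to lysosomes, Sort1 (0.92 ± 0.26, adjusted p = 0.0318) and Nagpa (1.16 ± 0.33, adjusted p = 0.0328) were higher and 0 lower (median 0.43). Of 14 other V-ATPase subunits and assembly factors tested, 0 were called by edgeR or DESeq2 and the median was -0.04. At an unadjusted p under 0.05, 2 of the genes were lower in edgeR and 4 in DESeq2. By the adjusted p alone 1 of them passed, Atp6v0e2, which was lower (log2 fold change -0.37 ± 0.08, adjusted p = 0.0137). In the TFEB family 0 of 3 tested genes were called by edgeR or DESeq2, and 1, Tfe3, had an unadjusted p under 0.05. Tfe3 had 18.1, 19.9, 21.5 and 19.6 CPM in control and 28.4, 28.0, 26.1 and 25.6 CPM in Nav-Tsc2 mice, with no overlap, and passed the adjusted p alone (log2 fold change 0.45 ± 0.11, adjusted p = 0.0189). Tfeb and Mitf stood at 0.842 ± 0.937 and 2.20 ± 1.24 CPM in control mice, and Tfec had 0 reads.

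**Figure D5:**
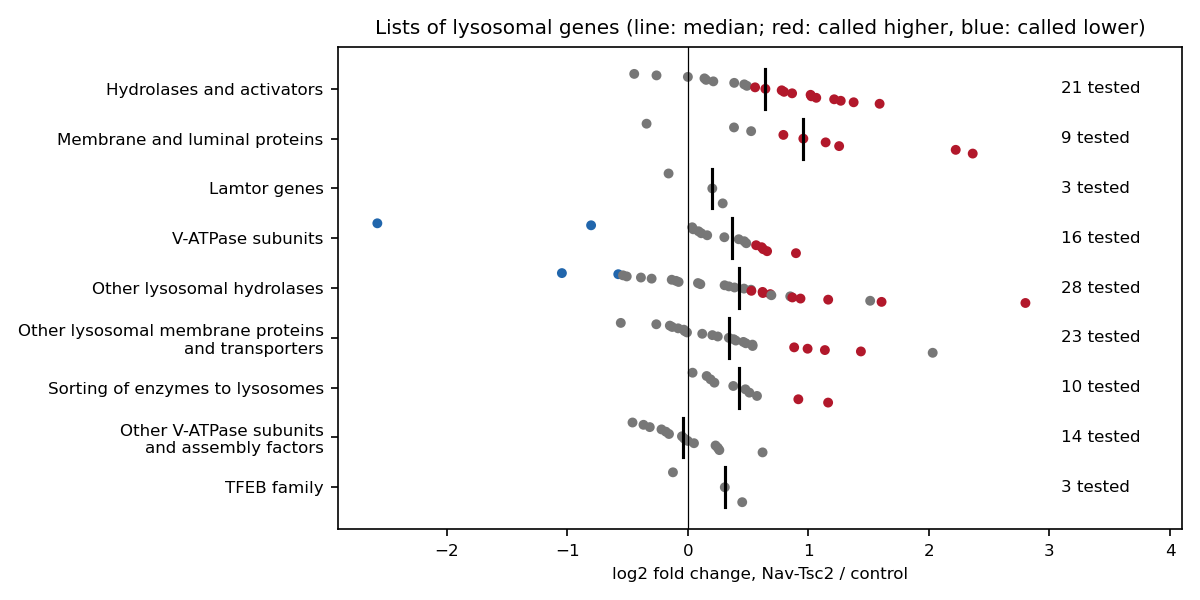
Log2 fold changes (x axis, Nav-Tsc2 over control) of tested genes in the 4 classes and in 5 further lists of lysosomal genes, 1 point per gene, with the list's median as a line. Medians run from 0.96 for membrane and luminal proteins to -0.04 for other V-ATPase subunits and assembly factors.

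The genotype effect was set against sex, with 2 mice per sex and genotype. In 0 of 49 lysosomal genes did the interaction of genotype and sex pass the adjusted p in edgeR (smallest adjusted p = 0.304), where 0.00582% of all genes did. At an unadjusted p under 0.05 there were 7, against 9.22% of all genes tested. In 6 of these 7 the difference was smaller, or more negative, in females, and over all 49 genes this held for 26. The smallest p-values were those of Hexa, Lamp1 and Atp6v0d1. The log2 fold change of Hexa was 1.38 in males and 0.66 in females (difference -0.71 ± 0.18 SE, adjusted p = 0.304). For Lamp1 it was 1.10 and 0.51 (difference -0.59 ± 0.15, adjusted p = 0.304), and for Atp6v0d1 0.69 and 0.29 (difference -0.41 ± 0.14, adjusted p = 0.456). A difference between the sexes was not shown for any lysosomal gene at this number of mice.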

How the data were processed

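RNA-seq was made from 24 libraries of 100 sorted cells, 3 for each of 8 mice, with the SMARTer Ultra Low kit and 50-base single reads. The authors used STAR for alignment to mm10, and HTSeq gave the deposited counts per gene (versions and strand setting are not given in the sources used here). The deposited counts are not normalized. The authors' table of DESeq2 fold changes and p-values was not used. Alignments that were not unique are outside the gene counts. They were 37.5 to 39.6% of the total in control libraries and 39.3 to 42.6% in Nav-Tsc2 libraries.

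The 3 libraries of a mouse were summed. Genes were kept by filterByExpr, scaled by TMM and compared by genotype with the quasi-likelihood test of edgeR 4.0.16, with p-values adjusted by Benjamini-Hochberg over all 17178 genes. Every lysosomal gene is reported, and up to 6 called genes per class with the smallest adjusted p, the most abundant gene per length of each class and genes under the filter are given in full. In other lists up to 3 called genes per direction are named, and for sex the 3 of smallest p. Some genes that this rule names are not reported here. The members and lists were chosen with earlier results of these data known. Nothing in the labels says that libraries or mice were run in batches. Levels per length use merged exons of GENCODE vM21 (GRCm38). Gene symbols were matched for 47224 of 47643 identifiers. The scripts were tested on simulated data.

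Alternatives were DESeq2 1.42.0, other scalings, no filter, other thresholds, sex as a covariate, a replicate block, limma 3.58.1 on single libraries, and leaving out each mouse. Same-numbered mice of the genotypes share only sex in the labels. Over 8445 genes they deviated together with correlations of 0.184, 0.185, 0.108 and 0.199 for numbers 1 to 4. On log2(CPM + 1) these correlations were 0.0831, 0.108, 0.0187 and 0.107. On the first scale, controls 1 to 4 had 0.198, 0.0627, 0.110 and 0.185 with the other Nav-Tsc2 mouse of their sex. The correlations thus did not set number apart from sex, and pairing is unclear. Reads carry no molecular identifiers, so limits from counts cover counting error only.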

Additional observations from a re-analysis of the deposited data

Results flagged for a closer look

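In 8 of 98 gene and genotype groups of 4 mice, 1 mouse stood apart from the other 3 by Dixon's test, where chance gives about 1 in 20 groups, or 4.9. Ctsc was 28.9 CPM in Nav-Tsc2 mouse 3, against 19.2 to 20.2 in the others. Gla was 50.1 CPM in control mouse 2 (others 31.0 to 32.6), and Ppt1 was 110.4 CPM in Nav-Tsc2 mouse 4 (others 117 to 117). Control mouse 4 was flagged for Cd63 at 50.6 CPM (others 75.8 to 79.2) and for Npc1 at 32.0 CPM (others 16.7 to 17.6). Atp6v0a1 was 339 CPM in Nav-Tsc2 mouse 2 (others 293 to 298), Atp6v0c was 27.3 CPM in control mouse 1 (others 23.8 to 24.3), and Atp6v0e was 121 CPM in Nav-Tsc2 mouse 3 (others 98.4 to 101).

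In 2 genes, Gaa and Atp6v1a, both Nav-Tsc2 males lay on one side of the mean of the male controls and both Nav-Tsc2 females on the other side of the mean of the female controls. For Gaa the log2 fold change in females minus that in males was -0.37 (interaction adjusted p = 0.651, edgeR). For Atp6v1a the difference was -0.37 as well (adjusted p = 0.506, edgeR). Neither interaction passed the adjusted p.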

How the results depend on the processing

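Across 16 other fits, 21 of the 25 calls among the 49 lysosomal genes were made in every one. Ctsc, Naglu, Tpp1 and Gpnmb lost theirs when single mice were left out, and Ctsz, Npc1, Atp6v0d1 and Atp6v1f gained one in some. With the replicate block 23 genes were higher and 2 lower, the same counts, and the block changed 0 calls of lysosomal genes. The median log2 fold change over the 49 genes, 0.49, was 0.54 with sex as a covariate and 0.57 with single libraries in limma, the mouse being a random effect. Leaving out 1 mouse gave 0.44 to 0.59 for it, 0.59 to 0.74 for hydrolases and 0.32 to 0.40 for V-ATPase genes. The median over all genes ran from -0.02 to 0.09 across the fits. With no fold threshold the lower calls were 5 over all, 2 hydrolases and 1 membrane protein, and the higher calls were 1 Lamtor and 9 V-ATPase genes. With Atp6v0c and its pseudogenes summed, added after the data were seen, Atp6v0c reversed to 0.56, the lower calls fell to 1 over all and 1 among V-ATPase genes, and the V-ATPase median was 0.45. With the longest transcript as length the control medians were 22.2 for hydrolases, 24.5 for membrane and luminal proteins, 35.5 for Lamtor and 132 CPM per kb for V-ATPase genes. With 100 bases before the gene start, CACGTG stood in 12 windows. Causes were not tested. The calls of Cd63 and Atp6v1g1 did not change with the reads of their copies added, which was also chosen after the data were seen.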
